A study of Tupaia belangeri with 15 samples.

Results

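The 9 genes described here make, package, clear and sense dopamine in the retina of the Chinese tree shrew (TS, Tupaia belangeri). They are TH, DDC, SLC18A2, SLC6A3, DRD1, DRD2, DRD3, DRD4 and DRD5, taken by their symbols among the 83605 features of the deposited annotation. All 9 symbols were listed, and 7 of the 9 genes had at least 1 count. Droplet libraries (10x Genomics) of single nuclei came from 15 retinas, 5 each labelled Infancy, Mature and Senile. The labels give retina as the tissue and the developmental stage, with no strain, treatment or age. Senile TSs came from another institute than the Infancy and Mature TSs, so the stage and the source of the animals cannot be told apart in comparisons with Senile retinas.

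Retinal dopamine is released by a sparse class of amacrine cells (ACs). Tyrosine hydroxylase (TH) makes DOPA from tyrosine with tetrahydrobiopterin as cofactor, DOPA decarboxylase (DDC) makes dopamine, VMAT2 (SLC18A2) loads it into vesicles and the dopamine transporter (SLC6A3) takes it back up. The receptors fall into a family that raises cyclic AMP (DRD1, DRD5) and a family that lowers it (DRD2, DRD3, DRD4). Dopamine is known as a signal of light adaptation, which uncouples horizontal cells (HCs) and AII ACs, adjusts bipolar cells (BCs) and, through DRD4, acts on photoreceptors.

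The values are counts of unique molecular identifiers (UMIs), each standing for 1 captured RNA molecule. The libraries held 13429873 to 58734300 UMIs, and 119765 nuclei passed the filters. A nucleus was placed in 1 of 9 classes by sets of marker genes, which held none of the 9 dopamine genes, and 83050 nuclei (69.3%) were placed. The gates held 18081 cones, 1053 rods, 27821 BCs, 896 HCs, 21198 ACs, 4145 retinal ganglion cells (RGCs), 8130 Müller cells, 1056 astrocytes and 670 microglia. In each gate the summed level of its own marker list was higher than that of every other list. That level was 2.31-fold (ACs) to 174.6-fold (microglia) higher than in any other gate. The same lists placed the nuclei, so this is no separate check of the gates. In RGCs the BC list stood at 1556 CPM beside 2009 CPM of the RGC list, and in HCs at 1053 CPM beside 1536 CPM of the HC list. Markers at 0 in all libraries included CNGA1, CNGB3, GAD2, SLC32A1, POU4F2 and S100B. The plain symbol NEFL was at 0 too, and its numbered copy NEFLli1, with 13071 UMIs, served as the marker. Retinas shared 4 to 30 cell barcodes per pair (median 18 of 105 pairs). The file headers name Cell Ranger 6.1.2 for 7 retinas (Infancy 1 to 3, Mature 1 and 2, Senile 1 and 2) and 7.0.1 for the other 8.

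Within a class, the UMIs of a retina were summed and scaled to CPM, the UMIs of a gene per 1000000 UMIs of that sum. Classes of the same retina were compared by a 2-sided exact sign-flip permutation test over retinas of the difference in log2(CPM + 1), which understates changes of low genes, with Benjamini-Hochberg adjustment over all features of the comparison. Beside each such comparison of classes stands the share of all features that passed an adjusted p of 0.05 in it. Levels are compared for 1 gene between classes and not between genes, since the sums are not scaled to gene length. A lower level in summed nuclei cannot tell fewer expressing nuclei from less RNA per nucleus.

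SLC6A3 and DRD5 were listed at 0 in all 15 libraries, as was the numbered copy SLC6A3li1. With a floor of 3 counts this allows up to 0.0511 CPM in the deepest library and 0.223 CPM in the shallowest. A count of 0 was frequent in these files: 19367 features (23.2%) had none, and among the 17209 features with a plain gene symbol 2278 (13.2%) had none. No level is therefore given for the dopamine transporter or for DRD5.

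TH, the rate-limiting enzyme, had 185 UMIs in 92 nuclei of 119765. By retina, Infancy 1 to 5 had 2, 10, 7, 20 and 7 TH UMIs, Mature 1 to 5 had 2, 67, 24, 5 and 3, and Senile 1 to 5 had 13, 9, 4, 2 and 10. Mature 2 alone held more than any other pair of retinas together. In the AC gate the mean TH level was 0.686 ± 1.36 CPM (SD, n = 15), with a median of 0.209 CPM and a highest value of 5.29 CPM in Mature 2. Of all TH UMIs 29.7% lay in gated ACs, which held 20.1% of the UMIs. Of the 92 nuclei with a TH UMI, 18 were in the AC gate and 43 were placed in no class. Rods had a mean of 0.623 CPM, from 1 UMI, and microglia had none. Pooled over retinas, astrocytes had 0.98 CPM, from 3 UMIs, and ACs 0.61 CPM. No class reached 1 CPM for TH, so the classes were not compared by test.

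The TH UMIs were concentrated in few nuclei: 21 nuclei with at least 2 TH UMIs (TH-rich nuclei) held 114 of them, 61.6% of the total, and a single nucleus held up to 13. They came from 9 retinas, 6 of them from Mature 2. The AC gate held 7 of them, the cone gate 2 and the Müller gate 1, and 11 were placed in no class, while 15 had AC as their best-scoring class. Total UMIs per TH-rich nucleus ranged from 3520 to 14701, with a median of 8616 against 3466 in the AC nuclei of all retinas that had no TH UMI, and 12 of the 21 were among the 8% of nuclei with the most UMIs in their retina. Depth and doublets were not tested as a source of these nuclei.

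SLC18A2, DDC, GCH1 and SLC6A2 were each seen in most of the TH-rich nuclei. SLC18A2 was present in 18 of the 21 nuclei, DDC in 13 and both in 12, and 2 nuclei had neither. GCH1, which makes the first step of tetrahydrobiopterin synthesis, was present in 13 nuclei, and SLC6A2, the noradrenaline transporter, in 13. All 5 genes were found together in 6 nuclei. In the largest set from 1 retina, the 6 nuclei of Mature 2, the TH UMIs per nucleus were 5, 11, 11, 9, 13 and 11.

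Over the 9 retinas, the TH-rich nuclei were set against the ACs with fewer than 2 TH UMIs in the same retina. TH itself chose the nuclei and stood at 704.9 CPM in their sum. The level of SLC18A2 was 494.7 CPM (80 UMIs) against 3.58 CPM in the ACs. By retina, TH-rich nuclei had 460.2, 869.8, 0.0 and 476.2 CPM of SLC18A2 in Infancy 2 to 5, 726.7 and 659.8 CPM in Mature 2 and 3, and 194.8, 364.4 and 762.5 CPM in Senile 1, 2 and 5. Apart from Mature 2, each retina had few TH-rich nuclei. The values of Infancy 3, Infancy 5 and Senile 5 each came from a single nucleus, with 4, 7 and 7 UMIs of SLC18A2. The ACs lay between 2.54 and 5.16 CPM, so 8 of 9 retinas were higher and Infancy 4, with no SLC18A2 UMI in its TH-rich nuclei, was lower. The difference passed the exact sign-flip permutation test (p = 0.0078, unadjusted, where 9 retinas can reach 0.0039). It held without Mature 2 (higher in 7 of 8, exact permutation p = 0.016) and without the 8% of nuclei with the most UMIs (6 of 7, exact permutation p = 0.031). For this test of TH-rich nuclei the share of all features under a given p is not given. Its p values, here and below, therefore do not set a gene apart from all features.

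DDC stood at 210.2 CPM (34 UMIs) in TH-rich nuclei and at 0.521 CPM in the ACs. It was higher in 6 of 9 retinas, with 440.4 CPM in Mature 2, 136.0 to 273.3 CPM in 5 others and 0 UMIs in Infancy 2, 3 and 4 (exact sign-flip p = 0.031). The levels of the 5 others rested on few UMIs, with 2 each in Infancy 5 and Senile 5. Without Mature 2, which held 20 of the 34 UMIs, DDC was higher in 5 of 8 retinas (exact permutation p = 0.0625), and without the 8% of nuclei with the most UMIs in 4 of 7 (exact permutation p = 0.125). GCH1 had 39 UMIs in the TH-rich nuclei, which is 48.8% of its 80 UMIs in the whole series, while these nuclei are 0.0175% of all nuclei. Its level was 241.2 CPM against 0.104 CPM in the ACs, higher in 8 of 9 retinas (exact permutation p = 0.0078), and without the 8% of nuclei with the most UMIs in 4 of 7 (exact permutation p = 0.125).

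SLC6A2, which carries noradrenaline and also dopamine, stood at 148.4 CPM against 0.0868 CPM and was higher in 6 of 9 retinas (exact permutation p = 0.031). Without Mature 2 it was higher in 5 of 8 (exact permutation p = 0.0625), and without the 8% of nuclei with the most UMIs per retina in 2 of 7, on 4 UMIs (exact permutation p = 0.50). MTNR1B, a melatonin receptor, stood at 117.5 CPM against 0.330 CPM and was also higher in 6 of 9 and lower in 3 (exact permutation p = 0.031). Its p was 0.0625 without Mature 2 (higher in 5 of 8, exact permutation) and 0.125 without the nuclei of most UMIs (higher in 4 of 7, exact permutation). The 21 nuclei held 9.56% of all UMIs of SLC6A2 and 9.79% of those of MTNR1B. NR4A2, a nuclear receptor of midbrain dopamine neurons, had 253.5 CPM against 34.0 CPM in the sums, higher in 6 and lower in 3 retinas (exact permutation p = 0.72), while edgeR over the sums called it higher (log2 change 1.69, edgeR adjusted p = 0.00011). For the receptors, DRD1 stood at 129.9 CPM against 63.5 CPM (exact permutation p = 0.31) and DRD2 at 55.7 CPM against 15.2 CPM (exact permutation p = 0.77). The mean log2 difference over retinas had the opposite sign, -1.18 for DRD1 and -0.35 for DRD2, with 0 UMIs of DRD1 in 3 and of DRD2 in 4 of the 9 retinas. DRD3 and DRD4 had 0 UMIs in the TH-rich nuclei, as had TPH2, ALDH1A1 and DBH, where 1 UMI was worth 6.18 CPM. For ALDH1A1 the ACs had 19.7 CPM, about the level of 3 UMIs in these sums, and it was called lower by edgeR (edgeR adjusted p = 0.0073) but not by DESeq2 (DESeq2 adjusted p = 0.82). The AC levels of the other 4 were below that of 3 UMIs and were not detectable at this depth.

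**Figure D1:**
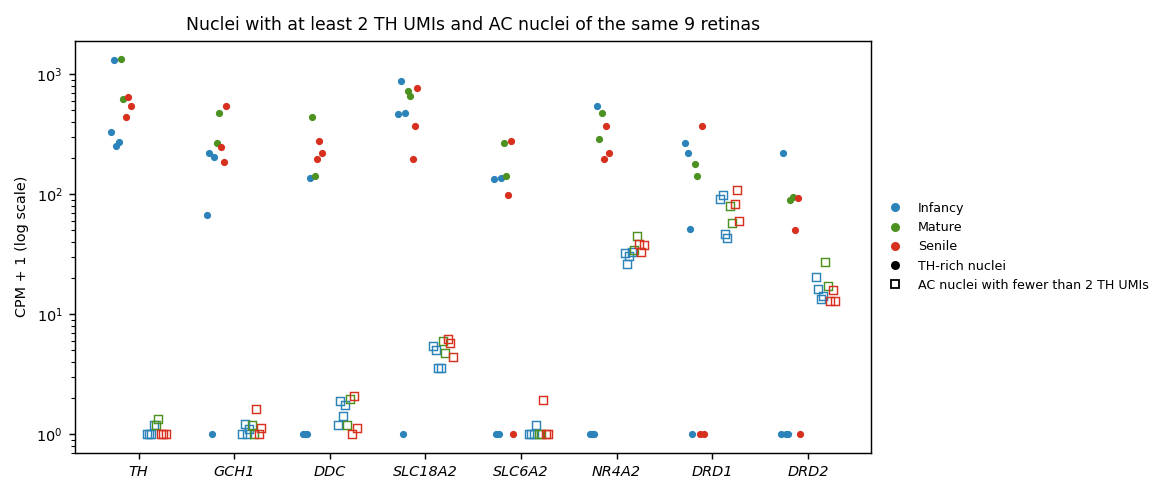
CPM + 1 on a log scale of 8 genes in the summed TH-rich nuclei (filled points) and in the other AC nuclei (open squares), 1 point per retina for 9 retinas, coloured by stage. SLC18A2 lies at 194.8 to 869.8 CPM in the TH-rich nuclei of 8 retinas and at 2.54 to 5.16 CPM in the ACs, whereas DRD1 and DRD2 overlap between both sets. The filled points of Infancy 3, Infancy 5 and Senile 5 each stand for a single nucleus.

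Across all features, edgeR with the retina as block called 350 of 12304 features higher in TH-rich nuclei (2.84%) and 3361 lower (27.3%), with a median log2 change of -1.0, while DESeq2 on its own scaling gave a median of 0.22 with 1035 higher and 417 lower. The share called lower thus differed between the tools, which differ in scaling and in test, and changes are read here relative to these medians. Among the 35 pathway genes with a feature, 21 could be fitted. By edgeR 6 were called higher and 4 lower, and by DESeq2 9 higher and 0 lower. Genes rare in ACs could pass the count filter of the fit only through the TH-rich sums, where they were high. Such genes could be called higher but hardly lower, so these counts are not read as a result about the list. Exact sign flips of the 35 genes over the 9 retinas gave 3 higher and 11 lower at an unadjusted p under 0.05. A gene with 0 UMIs in the TH-rich nuclei is lower in every retina that has it in ACs. The share of all features under this threshold is not given here, so nothing about the list is read from these counts. No direction is read for the genes called lower by edgeR and not by DESeq2. After TH, the features with the largest rise in every one of the 9 retinas and at least 50 UMIs were ARPP21 (a cyclic AMP-regulated phosphoprotein), TRPC3li2 (a numbered copy of a cation channel), NEBL, RARB (retinoic acid receptor beta), CTNNA3, LRRTM3, CNTNAP5li1, SLC2A13 and LINC-RP1-21O18.1-3. ARPP21 stood at 1620 CPM against 23.3 CPM, and TRPC3li2 at 531.8 CPM against 8.16 CPM. DESeq2 put the rises of these 9 at 2.09 to 5.91 on the log2 scale. It used the counts that chose them, so this is no separate support.

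Among the gated classes SLC18A2 was highest in RGCs. Its mean level in RGCs was 48.5 ± 11.9 CPM (SD, n = 15), with a lowest value of 18.5, a median of 49.7 and a highest of 65.5 CPM. Cones followed at 6.51 ± 2.26 CPM (3.91 to 12.7 CPM) and ACs at 4.37 ± 1.92 CPM (1.35 to 7.56 CPM). The lowest RGC value lay above the highest cone value, and RGCs were higher in 15 of 15 retinas by 2.72 on the log2 scale (exact p = 6.104e-05, which is the lowest possible value with 15 retinas; adjusted p = 0.00020; 70.5% of all features passed in this comparison). Cones exceeded ACs in 11 of 15 retinas (adjusted p = 0.018; 79.0% of features passed). RGCs held 36.1% of all SLC18A2 UMIs and 5.75% of all UMIs.

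A UMI of SLC18A2 was seen in 18.8% of RGC nuclei at a median of 5276 UMIs per nucleus. The share was 2.99% in cones at 3376 UMIs and 0.369% in Müller cells at 2455. In cones SLC18A2 was at 13.5% of its RGC level and the RGC marker list at 5.35%, and in Müller cells at 2.91% and 3.74%. Within RGCs, 290 nuclei (7.0%) had at least 2 UMIs of it, a set chosen after its values were seen. None of the 290 had a UMI of TH or of DDC, and DDC was seen in 14 of the other 3855 RGC nuclei, a share too low to set apart from 0 in 290. A UMI of DRD3 was seen in 0 of the 290 and in 69 of the other 3855, and since the nuclei share retinas and a difference was not tested over retinas, none is read from these counts. In 14 retinas edgeR with the retina as block called 148 of 7375 features higher in this set (2.01%) and 164 lower (2.22%). After SLC18A2, the largest rise was that of TBR1, a T-box transcription factor of some RGC types, at 50.6 CPM against 12.5 CPM and higher in 14 of 14 retinas. PCDH19li1, TMEM200A, NTNG1, TPD52L1, NELL1, ANGPT1, CSMD3 and GALNTL6 rose as well, by 0.64 (GALNTL6) to 1.30 (PCDH19li1) on the log2 scale. GRK3, a kinase that desensitizes receptors, was the single pathway gene called, at 35.2 CPM against 66.7 CPM (edgeR adjusted p = 0.00050), while DRD1 did not pass (32.8 CPM against 26.3 CPM, edgeR adjusted p = 0.72).

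DDC was mainly a cone gene by its counts: cones held 60.6% of its 692 UMIs and 18.8% of all UMIs. The cone level was 4.58 ± 2.94 CPM (SD, n = 15), with a lowest value of 1.78, a median of 3.41 and a highest of 13.3 CPM in Mature 1. Cones were above rods in 13 of 14 retinas (log2 difference 1.99, exact sign-flip permutation p = 0.00061, adjusted p = 0.0049; 26.0% of features passed). Microglia had a higher mean of 9.91 ± 13.1 CPM from 17 UMIs in 15 nuclei, with 9 of 15 retinas at 0, and cones and microglia were not separated (adjusted p = 0.60; 46.7% of features passed). In the ACs DDC was at 0.815 ± 0.543 CPM. The antisense features DDC-AS-1 and DDC-AS-2 had 442 and 794 UMIs, and whether the authors' counting used strand is not stated, so reads of DDC and of these features may not be told apart.

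DRD1, which raises cyclic AMP, had 36548 UMIs in 22488 nuclei. BCs had the highest level at 204.0 ± 30.2 CPM (SD, n = 15; lowest 158.6, median 203.1, highest 262.4 CPM). HCs had 133.5 ± 57.6 CPM (27.6, 135.5 and 251.7 CPM) and ACs 71.1 ± 22.2 CPM (38.4, 66.9 and 107.3 CPM). BCs and HCs overlapped in range, but BCs were higher in 13 of 15 retinas by 0.75 on the log2 scale (exact sign-flip p = 0.0014, adjusted p = 0.0050; 47.1% of features passed). Within the 7 retinas of Cell Ranger 6.1.2 this difference was 0.53 (exact permutation p = 0.20), and within the 8 of 7.0.1 it was 0.95 (exact permutation p = 0.0078).

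The order of DRD1 continued from HCs to ACs (higher in 14 of 15 retinas, adjusted p = 0.010; 50.3% of features passed), to astrocytes at 52.5 ± 25.3 CPM (adjusted p = 0.015; 49.3%) and to Müller cells at 40.0 ± 17.1 CPM, where the last step did not pass (adjusted p = 0.22; 30.0%). RGCs stood at 24.4 ± 7.60 CPM, below Müller cells in 14 of 15 retinas (adjusted p = 0.00098; 58.7%). Microglia (23.0 CPM), rods (18.9 CPM) and cones (14.7 CPM) were the lowest, and none of these neighbours was separated (adjusted p = 0.083 for RGCs and microglia, 0.76 for microglia and rods, 0.68 for rods and cones, with 47.7%, 20.8% and 26.0% of features passing). A UMI of DRD1 was seen in 33.7% of BC nuclei at a median of 2476 UMIs, in 35.9% of HC nuclei at 3975 and in 5.02% of cone nuclei at 3376.

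Free RNA can carry counts between droplets of a library, so the DRD1 level was set beside that of the BC marker list, which cones, rods or glia should lack. In cones DRD1 was at 7.18% of its BC level and the BC list at 4.86%, and in Müller cells at 17.8% and 12.6%. In ACs DRD1 was at 30.7% of its BC level and the BC list at 3.45%, in HCs at 55.6% and 5.90%, and in astrocytes at 22.7% and 6.12%. In rods the percentages were 8.80% and 7.52%, in RGCs 12.9% and 8.71%, and in microglia 9.62% and 5.17%. DRD1 stood above the list in all 8 other classes, by the most in HCs and ACs. The list also placed the nuclei, which lowers it in other gates, while DRD1 did not. Whether carried RNA made up these levels was therefore not tested. The same holds for the other marker lists set beside members.

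BCs differed among themselves in DRD1. The bipolar gate was parted by genes into 8276 nuclei with at least 2 UMIs of the ON-pathway genes TRPM1, GRM6 and ISL1 and little GRIK1li1, and 6778 nuclei high in GRIK1li1, a kainate receptor copy, with none of those genes, while 12767 BCs fell in neither. With so few markers these are called by their genes. GRIK1li1-high BCs had 435.8 ± 67.6 CPM of DRD1 (SD, n = 15; lowest 336.5, highest 543.1 CPM) and TRPM1/GRM6/ISL1-marked BCs 129.0 ± 23.8 CPM (82.9 to 173.1 CPM).

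The 2 groups of BCs did not overlap in DRD1, and the GRIK1li1-high nuclei were higher in 15 of 15 retinas by 1.76 on the log2 scale (exact sign-flip p = 6.104e-05, adjusted p = 0.00073). Of all 20936 features tested 27.2% passed, 10.4% higher and 16.8% lower. The median depth was 2034 UMIs in GRIK1li1-high nuclei and 2922 in the marked ones, and DRD1 was seen in 56.4% and 24.6% of them. The difference was 1.77 within Cell Ranger 6.1.2 and 1.74 within 7.0.1. Of 5 members tested 2 passed, the other being DRD2 at 39.9 ± 9.22 CPM against 28.2 ± 12.1 CPM, higher in 13 of 15 retinas (adjusted p = 0.022), although within Cell Ranger 6.1.2 the DRD2 difference was 0.16 (exact permutation p = 0.47), and with a stricter gate 0.40 (permutation p = 0.12).

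Of 23 genes of the pathway list tested in these BCs, 2 were higher in GRIK1li1-high BCs, where 10.4% of all features were, and 6 were lower, where 16.8% were. Numbers this small do not set the list apart from all features. GRK3, the receptor kinase, stood at 69.7 ± 7.03 CPM against 13.0 ± 6.1 CPM, and ADCY1, an adenylyl cyclase, was the other gene higher. GNAO1, the G protein that couples mGluR6 in ON BCs, stood at 190.5 ± 45.1 CPM against 1817 ± 197.5 CPM. ADCY5, the adenylyl cyclase of striatal dopamine signalling, stood at 65.5 ± 16.7 CPM against 98.7 ± 16.5 CPM, and AANAT, the melatonin pathway enzyme, at 51.5 ± 25.2 CPM against 145.2 ± 67.1 CPM. GNAL, GNAS and GNAI1li1, further G protein subunits, were lower too.

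**Figure D2:**
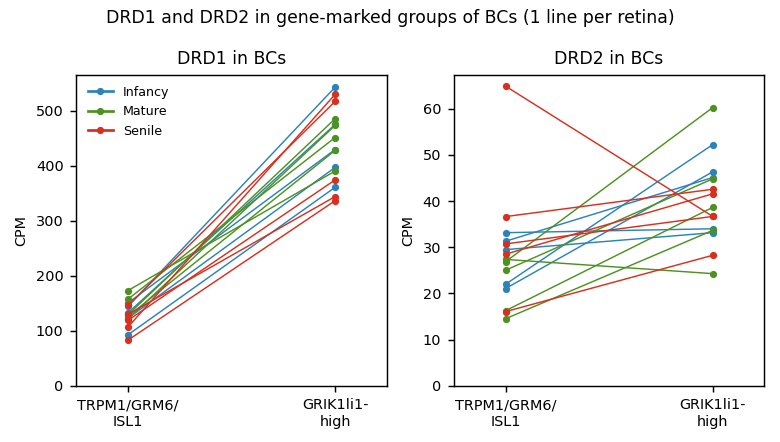
CPM of DRD1 and DRD2 in 2 gene-marked groups of BCs, with 1 line per retina (n = 15) coloured by stage. DRD1 rises in all retinas from 82.9 to 173.1 CPM in the TRPM1/GRM6/ISL1-marked BCs to 336.5 to 543.1 CPM in the GRIK1li1-high BCs, and DRD2 overlaps between the groups.

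DRD2 led in HCs. The HC level was 195.7 ± 57.7 CPM (SD, n = 15; lowest 61.7, median 187.4, highest 276.5 CPM) and that of BCs 33.9 ± 6.13 CPM (21.2, 34.1 and 44.5 CPM). The lowest HC value lay above the highest BC value, and HCs were higher in 15 of 15 retinas by 2.44 on the log2 scale (exact sign-flip p = 6.104e-05, adjusted p = 0.00051; 47.1% of features passed). BCs exceeded ACs, at 15.3 ± 4.60 CPM, in 15 of 15 retinas (adjusted p = 0.00019; 67.6%), and ACs exceeded Müller cells, at 8.68 ± 4.78 CPM, in 13 of 15 (adjusted p = 0.0011; 65.9%). Rods, RGCs, astrocytes and cones followed at 8.03 to 4.45 CPM without separation between neighbours (adjusted p of 0.27 to 0.85, with 41.7%, 44.7%, 43.9% and 47.7% of features passing from the step below Müller cells on).

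HCs are few, 17 to 140 per retina, yet they held 9.79% of all DRD2 UMIs from 0.748% of the nuclei. DRD2 was seen in 50.1% of HC nuclei at a median of 3975 UMIs and in 1.67% of cones at 3376. In BCs DRD2 was at 17.0% of its HC level and the HC marker list at 1.65%, and in ACs at 7.68% and 0.764%. Both receptors met in HCs: 322 of 896 nuclei had DRD1, 449 had DRD2 and 180 had both. DRD2 was seen in 55.9% of the HC nuclei with DRD1 and in 46.9% of those without, and the former had more UMIs (median 5136 against 3447), whose part in the difference was not tested.

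DRD4 was a photoreceptor gene. Cones held 80.2% of its 998 UMIs, at 9.88 ± 3.0 CPM (SD, n = 15; lowest 4.59, median 10.5, highest 15.9 CPM). Rods stood at 12.3 ± 8.60 CPM (n = 14; 0.0, 13.1 and 33.5 CPM) from 41 UMIs, and rods and cones were not separated (log2 difference of rods minus cones -0.17, adjusted p = 0.81; 26.0% of features passed). BCs, the next class, had 0.854 ± 0.527 CPM, lower than cones in 15 of 15 retinas (log2 difference 2.55, exact sign-flip permutation p = 6.104e-05, adjusted p = 0.00017; 72.2%). The BC level was 6.71% of the cone level where the cone marker list was at 2.49%.

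DRD3 was rare, with 225 UMIs in 199 nuclei, 37.3% of them in RGCs. RGCs had 2.80 ± 1.79 CPM (SD, n = 15; 0.0 to 5.25 CPM) from 84 UMIs, Müller cells 0.577 ± 0.523 CPM and rods 0 UMIs. RGCs were above Müller cells in 12 of 15 retinas (log2 difference 1.11, exact sign-flip permutation p = 0.0021, adjusted p = 0.0050; 58.7% of features passed). Without the 8% of nuclei with the most UMIs per retina the difference was 0.21 (permutation p = 0.59, 12 retinas), and within Cell Ranger 7.0.1 it was 0.68 (exact permutation p = 0.16). A numbered copy, DRD3li1, had 80 UMIs, and reads of both copies may have been split.

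**Figure D3:**
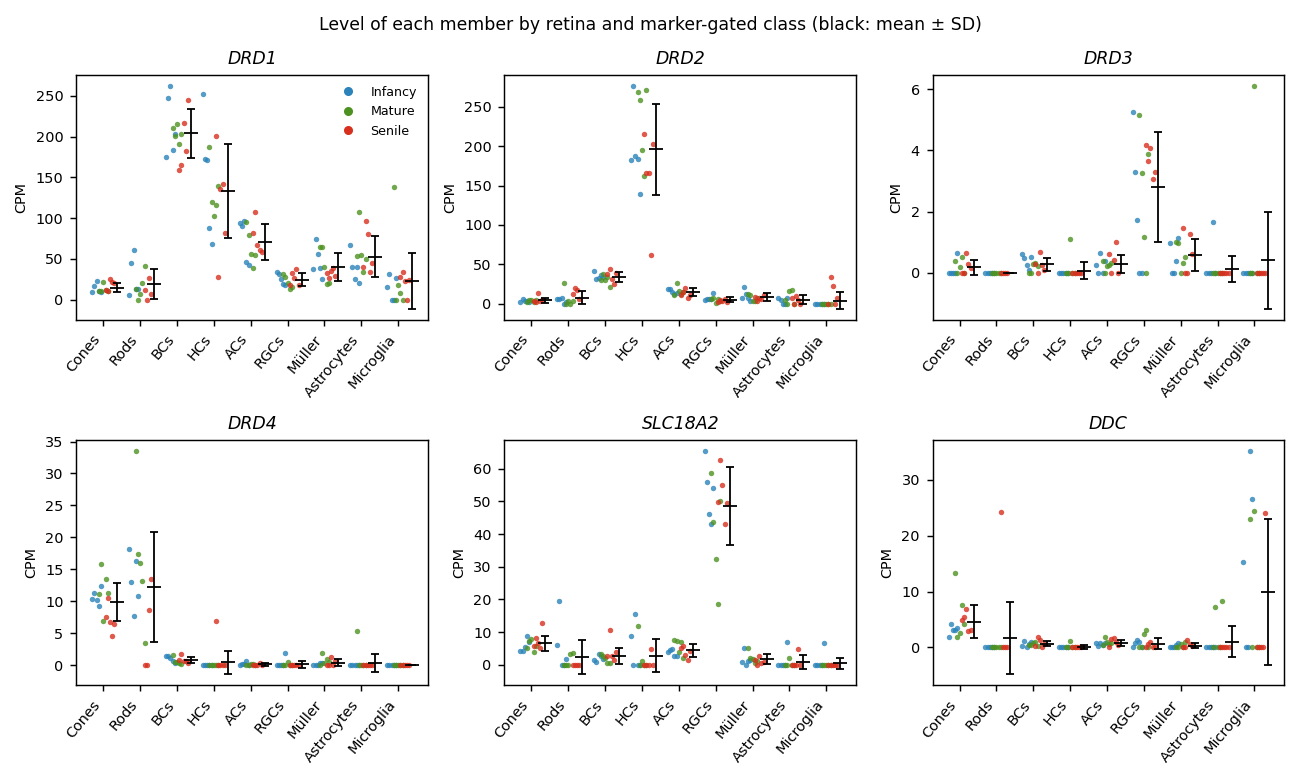
CPM of 6 dopamine genes in 9 marker-gated classes, 1 point per retina coloured by stage, with mean ± SD in black (n = 15 retinas, rods n = 14). DRD1 is highest in BCs (204.0 CPM), DRD2 in HCs (195.7 CPM), SLC18A2 and DRD3 in RGCs (48.5 and 2.80 CPM), DRD4 in rods and cones (12.3 and 9.88 CPM), and the microglia mean of DDC rests on 17 UMIs.

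Of the other genes of monoamine handling, TPH2 was at 303.0 ± 109.4 CPM in HCs (SD, n = 15) and at most 5.61 CPM in any other class, higher than in BCs in 15 of 15 retinas (log2 difference of BCs minus HCs -6.40, adjusted p = 0.00051; 47.1% of features passed). TPH1, the other tryptophan hydroxylase, was at 30.3 ± 13.6 CPM in cones and at 5.33 CPM in rods (cones higher in 14 of 14, adjusted p = 0.0016; 26.0% of features passed). AANAT was at 291.7 CPM in rods and 254.1 CPM in cones, which were not separated (adjusted p = 0.34), and lower in BCs at 97.7 CPM. PNMT, which makes adrenaline, was at 16.6 ± 11.7 CPM in rods from 52 UMIs, above ACs in 13 of 14 retinas (adjusted p = 0.0011; 11678 of 23358 features passed). SLC22A3li1, a copy of an organic cation transporter, was at 16.7 ± 2.39 CPM in ACs and at 4.45 CPM or less elsewhere. SLC6A4, the serotonin transporter, lay between 37.9 and 76.6 CPM in all 9 classes. Of the factors of dopamine neurons, NR4A2 was highest in ACs at 34.2 ± 5.01 CPM, followed by cones at 25.5 ± 5.94 CPM. LMX1B had its highest mean in HCs (0.706 ± 1.9 CPM) and PITX3 in astrocytes (1.57 ± 4.5 CPM). In all nuclei LMX1B had 73 UMIs and PITX3 433. Both SDs exceeded the means, so neither gene is assigned to a class. FOXA2 and EN1li1 were listed at 0. CALY was not analysed here.

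The features whose levels followed a member most closely over 107 sums of a retina and class, among 15000 features, were taken by Pearson's r of log2(CPM + 1) across these sums, which share libraries and classes, so r is a description. For DRD1 these were PLCB4 (r = 0.83), CNTN4 (0.82) and UNC5D (0.79), and for DRD2 they were TNR (0.85), PLCB4 (0.83) and TMEFF2 (0.81). For DRD4 they were LINC-EIF4E-1 (0.92), C9ORF57 (0.91) and LINC-GUCY2D-1 (0.91), for SLC18A2 LINC-MMUT-3 (0.78), CYP4X1 (0.78) and AK5 (0.77), and for DRD3 TGFBR2-AS-2 (0.73), LORF2li19 (0.73) and PALM3 (0.71). DDC was followed by MLXIP (0.68), BIN1 (0.66) and TLR3-AS-2 (0.66). No feature followed TH beyond 0.34 (STUM, then CARTPTli1).

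With stage, no member passed where it could be tested. UMIs of each retina, and of each class with at least 10 nuclei in it, were fitted with edgeR's quasi-likelihood test over all features. In these fits no member was tested in rods, astrocytes or microglia. TH and DRD3 were tested in the whole retina alone, and DDC and DRD4 there and in cones. Of 75 tests of members, 25 per contrast, 0 reached an adjusted p of 0.05, where 0.482% of all features in the stage fits did. At that share, 0 of 75 does not set the members apart from all features. Between Senile and Infancy this share was 0.977% in the whole retina, 1.22% in cones, 1.07% in BCs, 0.792% in ACs, 0.917% in RGCs and 0.356% in HCs, and between Mature and Infancy it was 0.459%, 0.954%, 0.597%, 0.318%, 0.494% and 0.194%. At an unadjusted p under 0.05 there were 4, 3 of them between Senile and Infancy and 1 between Senile and Mature, and DESeq2 also called 0. With the Cell Ranger version in the model 0 of 78 member tests were called and 6 had an unadjusted p under 0.05, with 0.482% of all features called becoming 0.737%. The SE of the stage change was smaller with the version in 63 of the 75 tests in both fits, and the lowest adjusted p of a member was 0.25 (edgeR). Of 408 tests of pathway genes 0 passed and 24 had an unadjusted p under 0.05.

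DRD4 in cones had the lowest unadjusted p. By retina, cones had 10.4, 11.3, 10.2, 9.23 and 12.4 CPM in Infancy 1 to 5, 11.2, 15.9, 6.96, 13.6 and 11.3 CPM in Mature 1 to 5, and 7.50, 10.5, 6.74, 4.59 and 6.49 CPM in Senile 1 to 5. The stages overlapped through Senile 2 and Mature 3. The log2 change from Mature to Senile was -0.80 ± 0.26 (SE, edgeR adjusted p = 0.61) and from Infancy to Senile -0.67 ± 0.26 (edgeR adjusted p = 0.38).

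DRD1 in the whole retina changed by -0.44 ± 0.18 on the log2 scale from Infancy to Senile (edgeR adjusted p = 0.61), and within BCs by -0.23 ± 0.13 (edgeR adjusted p = 0.84). DRD2 in RGCs changed by -1.03 ± 0.46 from Infancy to Senile (edgeR adjusted p = 0.84). DRD2 in HCs had stage means of 193.7 ± 50.3, 231.2 ± 49.7 and 162.2 ± 60.4 CPM (SD, n = 5 each) for Infancy, Mature and Senile. SLC18A2 in RGCs had means of 52.9 ± 8.83, 40.7 ± 15.8 and 52.0 ± 7.31 CPM. DDC in cones had 1.78, 4.23, 3.07, 3.04 and 3.41 CPM in Infancy, 13.3, 1.96, 2.64, 7.56 and 4.22 CPM in Mature and 4.94, 5.46, 6.95, 2.97 and 3.10 CPM in Senile retinas, with overlap between all stages.

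**Figure D4:**
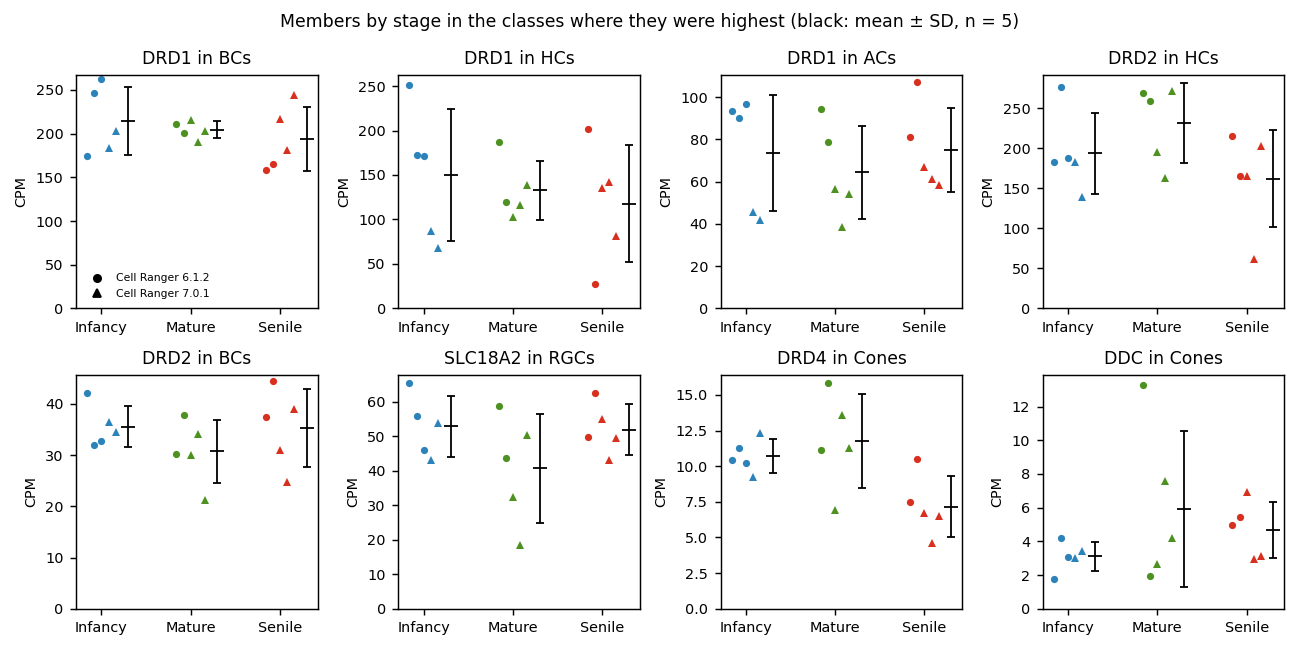
CPM of members in 8 class sums by stage, 1 point per retina (circles Cell Ranger 6.1.2, triangles 7.0.1), with mean ± SD in black (n = 5 per stage). The stages overlap in each panel, and DRD1 in ACs lies at 78.7 to 107.3 CPM in the 6.1.2 retinas and at 38.4 to 66.9 CPM in the 7.0.1 retinas.

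The share of gated ACs that were TH-rich was 2.54 ± 3.49 per 10000 in Infancy (SD, n = 5, 2 nuclei in all), 3.33 ± 7.45 in Mature (3 nuclei, all from Mature 2) and 3.26 ± 4.60 in Senile retinas (2 nuclei). Exact permutation of the retinas gave p = 1.0 for Mature against Infancy, 1.0 for Senile against Mature and 0.84 for Senile against Infancy, where the smallest possible p is 0.0079. Counting ACs with at least 1 TH UMI gave 4.80 ± 4.83, 15.4 ± 6.2 and 3.26 ± 4.60 per 10000, with exact permutation p of 0.024 for Mature against Infancy and 0.016 for Senile against Mature. These rest on 4, 12 and 2 nuclei, and a single TH UMI was also seen in cones, BCs and Müller cells, so no change is read from them.

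Retinas processed with the 2 Cell Ranger versions were compared in a model with stage. Of 26 member tests edgeR called 6 lower in the 7.0.1 retinas and 0 higher, where 12.5% of all features in these fits were lower and 13.6% higher. Of 141 tests of pathway genes 20 were higher and 11 lower. Many features differed by version, and the members' share is not set apart from them: 36.7% of all features passed in the whole retina, 31.5% in ACs, 25.4% in cones, 23.4% in BCs, 19.8% in RGCs, 21.7% in Müller cells and 12.2% in HCs. SLC18A2 in the whole retina changed by -1.42 ± 0.19 on the log2 scale (edgeR adjusted p = 0.00032), DRD4 by -0.98 ± 0.27 (edgeR adjusted p = 0.012) and DRD3 by -1.12 ± 0.37 (edgeR adjusted p = 0.027). DRD3 lost its call without Infancy 1 (-0.96), Infancy 4 (-0.90), Mature 1 (-0.93) or Mature 5 (-1.06). The 6.1.2 retinas held 442 to 662 RGC nuclei each and the 7.0.1 retinas 15 to 151, and within RGCs the change of SLC18A2 was -0.35 ± 0.16 (edgeR adjusted p = 0.13).

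DRD1 in ACs was 93.6, 90.2 and 96.8 CPM in Infancy 1 to 3, 94.5 and 78.7 in Mature 1 and 2 and 81.4 and 107.3 in Senile 1 and 2, all of version 6.1.2. It was 45.7 and 42.1 CPM in Infancy 4 and 5, 56.4, 38.4 and 54.2 in Mature 3 to 5 and 66.9, 61.3 and 58.5 in Senile 3 to 5. The sets did not overlap (log2 change -0.95 ± 0.12, edgeR adjusted p = 9.7e-05). SLC18A2 in ACs (-0.93 ± 0.25, edgeR adjusted p = 0.010) and DRD1 in Müller cells (-0.74 ± 0.24, edgeR adjusted p = 0.036) also passed. In BCs, where DRD1 was highest, the change was 0.02 ± 0.11 (edgeR adjusted p = 0.94). The version cannot be told apart from whatever else differed between these sets of libraries.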

How the data were processed

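Single-nucleus libraries of 15 retinas were analysed. The authors deposited raw UMI counts per feature and barcode, made with Cell Ranger on the TS_3.0 build. The file headers give versions 6.1.2 and 7.0.1, the submitters' processing notes 5.0.1 and 7.0.1. Whether intron reads were counted is not given in the sources used here. Libraries held 13429873 to 58734300 UMIs, and floors of 3 counts cover counting error only.

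Nuclei with 200 to 6000 genes and under 5% of UMIs from the mitochondrial feature MT-ND1li1 were kept, 119765 of 120437 barcodes. No doublet caller was run; an alternative left out the 8% of nuclei with the most UMIs per retina. Each nucleus got a score per class, the mean log-scaled level of its markers scaled to the 90% quantile, and was placed where the best score led by 0.1 and at least 2 markers had UMIs (0.2 in the stricter gate). GRIK1li1-high BCs had over 100 and the others under 10 UMIs of GRIK1li1 per 10000. UMIs were summed per retina and class (at least 10 nuclei). The study gives 15 donor TSs, 5 per stage, so the retinas of a stage came from separate animals.

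Classes were compared with exact sign flips (pseudocount 1 CPM), tested on simulated data. Adjustment over the members alone, which the design names, served only to call changes between alternatives and is not printed. Stage and version were fitted with edgeR 4.0.16 (TMM, filterByExpr, quasi-likelihood) in R 4.3.3, with DESeq2 1.42.0 as an alternative, and Python 3.11.15, numpy 2.4.6 and scipy 1.17.1 did the rest. The planned edgeR fit of TH-rich ACs needed 3 such nuclei per retina, which 1 retina had, so TH-rich nuclei of any class were used, a choice made after seeing the data, as was the set of RGCs rich in SLC18A2. Named features followed a rule: the 3 with the highest r per member with at least 100 UMIs, reaching 10 CPM in a class, over sums of at least 50 nuclei, and the 10 with the largest rise among those called, higher in every retina and with at least 50 UMIs. The members, lists and tests were chosen with earlier results of these data known. Sequences and coordinates are not used here, and a comparison between groups of ACs is not reported here.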

Additional observations from a re-analysis of the deposited data

Results flagged for a closer look

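Among 57 groups of retinas examined for a value far from the others, 2 held one, and chance gives about 1 in 20. TH in the whole retina was 2.59 CPM in Mature 2 and 0.0674 to 0.472 CPM in the other 4 Mature retinas. Of its 67 TH UMIs, 60 lay in 6 nuclei. DDC in the whole retina was 5.09 CPM in Mature 1 and 0.742 to 1.67 CPM in the other Mature retinas, and the same retina had the highest DDC level in cones (13.3 CPM).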

How the results depend on the processing

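The alternatives changed few calls of the levels by class. Rods minus cones in DRD4, not called, turned from -0.17 to 0.063 with a pseudocount of 10 CPM and to 0.090 and 0.046 without Senile 2 or Senile 3, and microglia minus cones in DDC, not called, from -0.48 to 0.19 (pseudocount 10) and 0.10 (within 7.0.1). In the BC groups 2 members passed, 1 with the stricter gate, 4 with a pseudocount of 10 CPM and 0 within 6.1.2. With the 7 retinas of 6.1.2, 1 member at the lowest possible p cannot pass the adjustment on its own. Leaving each retina out in turn gave 2 to 4 (4 without Senile 1). The difference in the TH-rich share of ACs per 10000 had no stable sign. Mature minus Infancy (0.79) became 10.6 with at least 1 TH UMI, -1.90 with the stricter gate, -2.79 without high-UMI nuclei, -3.38 within 7.0.1 (6.35 within 6.1.2) and -2.54 to 1.85 over retinas left out (-2.54 without Mature 2). Senile minus Mature (-0.08) became -12.1, 2.67, 1.43 and 2.18 (-3.46 within 6.1.2) in the same order, 0.10 over all classes and -1.70 to 3.26 over retinas left out (3.26 without Mature 2). Senile minus Infancy (0.72) became -1.54 with at least 1 TH UMI, -1.36 without high-UMI nuclei, -1.20 within 7.0.1 (2.89 within 6.1.2) and -0.91 to 1.77 over retinas left out (-0.91 without Senile 2). Thinned to 1000 UMIs, no AC kept 2 TH UMIs. The cause was not tested.

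In the TH-rich fit DRD1, not called, was -0.30 with edgeR, 0.53 with DESeq2 and 0.11 without the retina block, where 0 in place of 2 members passed because SLC18A2 and DDC fell below the filter. The median log2 changes of all features in these fits were -1.0, 0.22 and -0.73, and DRD1 lay above each. In the SLC18A2-rich fit 1 member in place of 0 passed without a filter, and by version 4 in place of 3 class tests did. Labels give the same replicate numbers in each stage. Deviations of same-numbered retinas correlated over 0.1 in 13 of 15 pairs in the whole retina (r of -0.47 to 0.51). The numbers run with the Cell Ranger version: among pairs of 1 version 12 of 13 with the same number and 21 of 24 with different numbers were over 0.1. Since not every same-numbered pair was, the numbers were not taken as pairs. With the replicate block 0 members passed by stage, as without it. The block leaves the mean differences of the TH-rich shares (0.79, -0.08 and 0.72) as they are by its construction and gave exact permutation p of 1.0, 1.0 and 0.88.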
